A study of Mus musculus with 12 samples.

Results

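The genes described here are Hif1a and 9 genes known to be induced through it under low oxygen: Vegfa, Slc2a1, Slc16a3, Pdk1, Bnip3, Egln3, Ndrg1, Adm and Ankrd37. They were chosen by name, as genes that depend on the same partner protein as the dioxin receptor, and were found through the probe sets of the array that carry one of these symbols and no other. All 10 were measured, among 18193 genes in all, by 25 of the 34945 probe sets with a single symbol. Where a gene had several probe sets, the one with the highest mean over all 12 arrays stands for it, and the others are given separately.

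The study set 2 kinds of primary mouse hepatocytes, freshly isolated liver cells kept in culture, side by side under TCDD, a chlorinated dioxin that is a persistent and very potent ligand of the aryl hydrocarbon receptor (AHR). The wild type groups came from C57BL6/J mice, which have their own mouse receptor. The human AHR groups came from a strain on the B6.Cg background that carries the conditional mouse allele Ahrtm3.1Bra, in which loxP sites allow the mouse receptor gene to be cut by Cre, together with the transgene insertion Tg (Alb-cre, Ttr-AHR)1Ghp. Of these transgenes, human AHR is driven by the transthyretin (Ttr) promoter and Cre by the albumin (Alb) promoter, both active mainly in hepatocytes. Each genotype was given 10 nM TCDD or the solvent DMSO for 6 h, with 3 arrays a group; the series' design text names a different mouse behind each array, which the arrays themselves leave in doubt, as given below. All 4 groups shared the culture of 48 h in a hepatocyte medium that itself held dimethyl sulfoxide and dexamethasone, so vehicle cells are not cells free of solvent or glucocorticoid. The labels give neither the age nor the sex of the mice nor the oxygen of the cultures, and they name no low-oxygen group.

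HIF1A is a transcription factor of the bHLH-PAS family, the family to which AHR belongs. With oxygen present, prolyl hydroxylases such as EGLN1 and EGLN3 mark HIF1A for capture by VHL and for destruction, so its activity is set mainly at the protein and only in part at the messenger RNA. When stable, it pairs with ARNT and binds DNA at a short core element, and ligand-bound AHR also needs ARNT to bind its own, closely similar element. Whether an activated AHR affects HIF1-dependent genes, with which it shares this partner, is the question these genes allow to be asked of the comparisons below.

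The stretch just before a gene's start is where such elements are often looked for, and 4 are shown because their genes carry the differences described below. The sequences are RefSeq's for the mouse build GRCm38.p6, 250 bases ending at the base before the annotated start, read 5′ to 3′ along the gene's strand. The windows lie at chr7:110627407-110627656 on the plus strand for Adm, chr8:45999851-46000100 on the minus strand for Ankrd37, chr17:46032378-46032627 on the minus strand for Vegfa and chr11:120948817-120949066 on the plus strand for Slc16a3. The hypoxia core is CGTG after an A or a G, and the core of the AHR element is GCGTG, so that GCGTG is a core of both. Capitals mark every ACGTG and GCGTG on either strand, where CACGT and CACGC are the same letters read from the opposite strand.
Adm: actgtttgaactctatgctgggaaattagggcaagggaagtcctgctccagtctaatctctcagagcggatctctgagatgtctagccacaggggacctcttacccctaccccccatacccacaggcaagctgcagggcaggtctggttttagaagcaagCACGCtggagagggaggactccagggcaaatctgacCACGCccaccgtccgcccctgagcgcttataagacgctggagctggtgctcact
Ankrd37: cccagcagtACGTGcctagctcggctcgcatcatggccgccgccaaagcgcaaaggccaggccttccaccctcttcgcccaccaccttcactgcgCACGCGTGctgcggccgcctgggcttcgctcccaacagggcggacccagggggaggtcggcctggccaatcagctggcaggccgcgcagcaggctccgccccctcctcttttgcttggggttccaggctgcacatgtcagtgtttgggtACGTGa
Vegfa: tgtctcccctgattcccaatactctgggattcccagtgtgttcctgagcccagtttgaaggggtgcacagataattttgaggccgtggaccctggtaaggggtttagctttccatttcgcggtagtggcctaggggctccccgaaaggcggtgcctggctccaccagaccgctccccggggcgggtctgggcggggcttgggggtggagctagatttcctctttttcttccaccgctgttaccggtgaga
Slc16a3: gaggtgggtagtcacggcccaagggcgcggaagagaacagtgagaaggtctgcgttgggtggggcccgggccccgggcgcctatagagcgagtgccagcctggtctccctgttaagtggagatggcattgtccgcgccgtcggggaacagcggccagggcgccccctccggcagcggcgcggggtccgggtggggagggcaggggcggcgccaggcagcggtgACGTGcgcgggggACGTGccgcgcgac
The Adm window held no ACGTG and held GCGTG at 2 places, both on the opposite strand, with their leftmost bases at -90 and -54 counted back from the start. In the Ankrd37 window ACGTG was found at -241 and -6, and GCGTG at -155 on the opposite strand and at -152 on the gene's own, where the pair overlap. Neither spelling was found in the Vegfa window shown, while the window of its other annotated start held 1 of each. The Slc16a3 window held ACGTG at -27 and -14 and no GCGTG.

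RefSeq's table held 11 such windows for 9 of the 10 genes, with 2 each for Vegfa and Pdk1 and none for Ndrg1. ACGTG was found in 7 of the 11 windows, against 16.6% of all 32851 windows of this length, and GCGTG in 6, against 28.2%; either was found in 9, against 38.6%. The ACGTG windows were those of Hif1a, Slc2a1, Slc16a3, Bnip3, Egln3, Ankrd37 and the other start of Vegfa. That Vegfa window, at chr17:46025164-46025413 on the minus strand, lies downstream of the one shown. Its letters therefore come after the first annotated start and not before it. CACGTG, which reads as ACGTG on both strands and was counted once on each, was found before Hif1a and Bnip3. These matches describe letters within 250 bases and do not show that a protein binds there.

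The values are probe set intensities, rescaled so that each array had a trimmed mean of 150. As deposited, the 3 wild type TCDD arrays had been scaled to 500 and the other 9 to 150, so this step divided the signals of 1 treated group by 3.333 and left the rest as they were. Median signal after rescaling was 16.5 to 23.5, and in wild type it was 20.3 to 21.9 under TCDD against 18.1 to 19 under vehicle, a shift that moves with treatment and whose part in the results was not tested beyond the other scalings given below. Arrays of the same group correlated at 0.958 to 0.985, and no pair was identical. Both wild type replicate 2 arrays read Xist at 2952 or above, against at most 29.3 elsewhere, with the Y-linked probe sets at 4.7 or below, so these arrays look female and the other 10 male. They share a replicate number across treatments, and same-numbered vehicle and TCDD arrays also deviated together in human AHR cells. Cultures of 1 mouse may therefore have been split between treatments. The tests here treat all 12 arrays as independent. The fit with the number as a block also changed other values, and is given below where it moved an unadjusted p across 0.05 in limma. Of the 7 hepatocyte markers 6 were measured, with a summed signal of 38282.3 to 50825.5, and none of the groups lacked them. The AHR targets, which serve as the positive control, were called as follows at an adjusted p under 0.05 in limma: Tiparp rose in wild type, Tiparp and Cyp1a1 rose in human AHR cells, and Cyp1a2 was higher in human AHR than in wild type cells under vehicle.

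TCDD was followed by no difference in these 10 genes that passed the test across all genes, in either genotype. The array signals nevertheless separated for some of them. In wild type cells all 3 TCDD arrays lay below all 3 vehicle arrays for Adm and Ankrd37 and above them for Ndrg1, and in human AHR cells they lay below for Adm, Ankrd37 and Vegfa. At an adjusted p under 0.05 in limma, 0 of 10 were called in wild type, where 0.0055% of all genes were called, and 0 of 10 in human AHR cells, where 0.022% were. At an unadjusted p under 0.05, the members gave 2 lower and 1 higher in wild type, against 1.19% and 3% of all genes, and 2 lower and 0 higher in human AHR cells, against 1.46% and 1.43%.

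**Figure D1:**
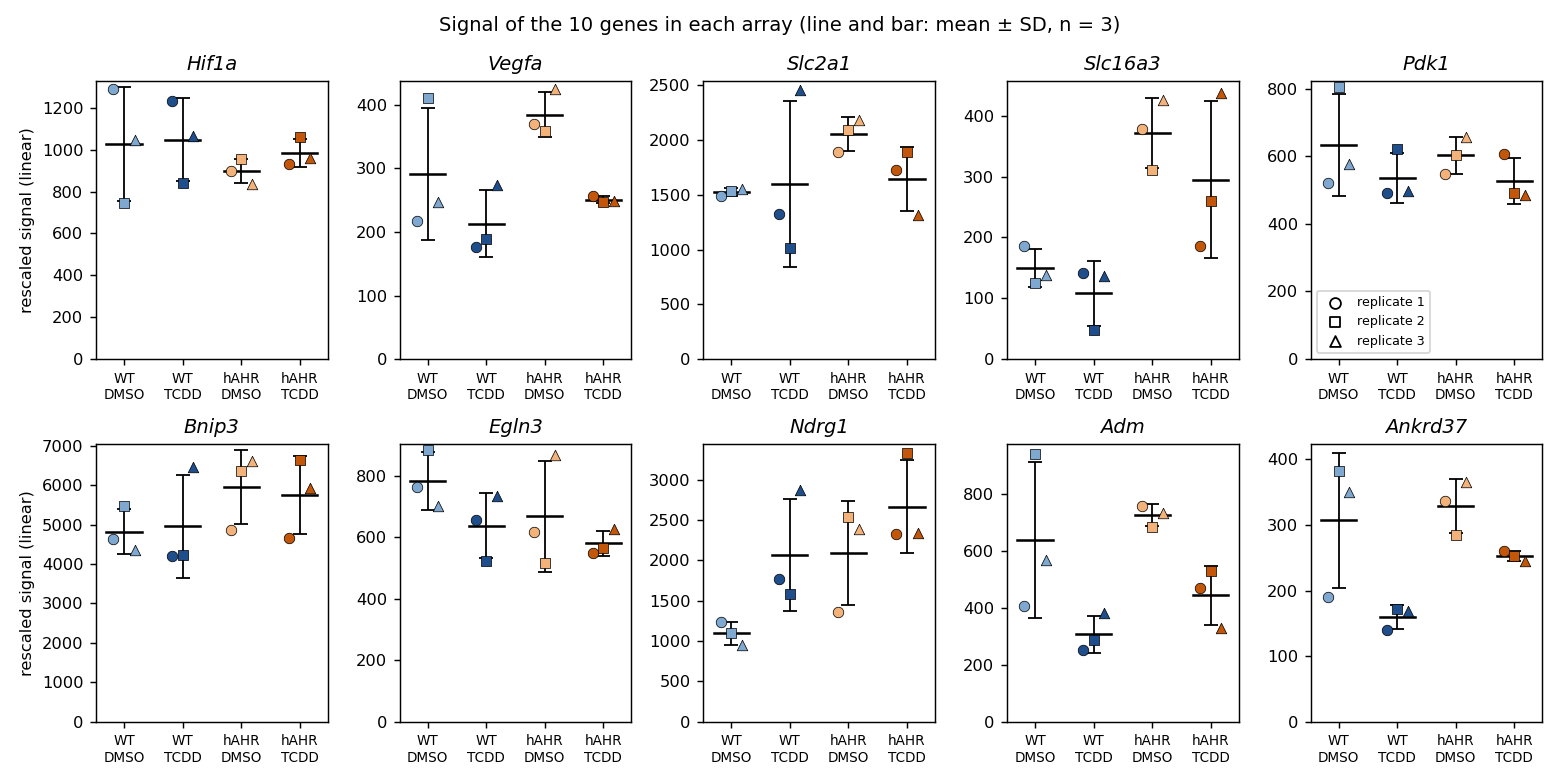
Rescaled signal (vertical axis, linear intensity from 0) of the 10 genes, 1 panel a gene, in the 4 groups (WT, wild type; hAHR, human AHR), with 1 point an array, its shape giving the replicate number, and lines for the mean ± SD of 3 arrays. For Adm and Ankrd37 the TCDD points lie below the vehicle points of the same genotype, while the points of Hif1a, Pdk1 and Bnip3 overlap between the treatments.

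The regulator itself differed little. Hif1a, the oxygen-regulated subunit, read 1292, 747.8 and 1045 in the wild type vehicle arrays and 1234, 840.4 and 1068 under TCDD. In human AHR cells it read 898.2, 954.8 and 838.5 under vehicle and 932.8, 1063 and 960 under TCDD. The female-pattern pair held the lowest signal of each wild type group, and the groups overlapped in both genotypes. The log2 difference for TCDD against vehicle was 0.04 in wild type (95% confidence interval -0.35 to 0.44, adjusted p = 0.988 in limma) and 0.13 in human AHR cells (-0.27 to 0.53, adjusted p = 1). Here and below, log2 differences are of the signal plus 16, which understates those of dim genes.

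Egln3, the prolyl hydroxylase that is itself induced by HIF1 and so closes a feedback loop, read 765.1, 885.4 and 701 under vehicle and 657.9, 524.2 and 735 under TCDD in wild type cells. Readings in human AHR cells were 619.1, 517 and 870 under vehicle and 548.5, 567.1 and 627.7 under TCDD. The means under TCDD were lower in both genotypes, with overlapping arrays. Its log2 differences were -0.29 (SE 0.18) in wild type and -0.17 in human AHR cells. The wild type value was -0.07 without both female-pattern arrays, and the human AHR value was 0.04 without vehicle replicate 3 and -0.33 without vehicle replicate 2.

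The 2 secreted products were both on the low side under TCDD. Adm, which encodes adrenomedullin, a peptide that widens vessels, read 406.9, 940.6 and 565.9 in wild type vehicle arrays (mean 637.8 ± 274 SD, n = 3) and 252.1, 286.7 and 380.3 under TCDD (306.4 ± 66.3 SD, n = 3). In human AHR cells it read 757.8, 681.8 and 731.7 under vehicle (723.8 ± 38.6 SD, n = 3) and 471, 530.4 and 329.4 under TCDD (443.6 ± 103 SD, n = 3). Every TCDD array lay below every vehicle array of its genotype, although in wild type the gap was narrow, from 380.3 to 406.9. Across genotypes the groups overlapped, since wild type vehicle replicate 1 lay within the range of the human AHR cells under TCDD. The log2 difference was -0.96 (SE 0.26, 95% confidence interval -1.52 to -0.40, unadjusted p = 0.00263, adjusted p = 0.966 in limma) in wild type and -0.71 (SE 0.26, -1.27 to -0.15, unadjusted p = 0.0164, adjusted p = 1) in human AHR cells. Without the single highest array, wild type vehicle replicate 2, the wild type value was -0.64, and without both female-pattern arrays it was -0.61.

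Vegfa, the growth factor that draws in new vessels, read 217.5, 410.8 and 247.3 in wild type vehicle arrays (mean 291.9 ± 104 SD, n = 3) and 176.6, 189.2 and 273.7 under TCDD (213.2 ± 52.8 SD, n = 3). The human AHR arrays read 370.4, 359.2 and 424.4 under vehicle (384.7 ± 34.9 SD, n = 3) and 256.6, 246.4 and 248.9 under TCDD (250.6 ± 5.32 SD, n = 3). The human AHR arrays separated fully and lay close together within each treatment, whereas the wild type arrays overlapped. The log2 difference was -0.40 (SE 0.21, unadjusted p = 0.0846, adjusted p = 0.966 in limma) in wild type and -0.58 (SE 0.21, 95% confidence interval -1.05 to -0.12, unadjusted p = 0.017, adjusted p = 1) in human AHR cells. The wild type value rested on vehicle replicate 2 and was -0.14 without it, and -0.07 without both female-pattern arrays.

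The glucose transporter gene Slc2a1, which encodes GLUT1, read 1489, 1540 and 1553 in wild type vehicle arrays and 1327, 1019 and 2460 under TCDD. With the human receptor it read 1889, 2092 and 2188 under vehicle and 1732, 1890 and 1319 under TCDD. The third wild type TCDD array stood far above the other two, and the arrays of human AHR cells overlapped narrowly, 1890 under TCDD against 1889 under vehicle. The log2 difference was -0.03 (95% confidence interval -0.56 to 0.50) in wild type and -0.33 in human AHR cells. Without wild type TCDD replicate 3 the wild type value was -0.39, and without both female-pattern arrays 0.25. The human AHR value was -0.18 without TCDD replicate 3.

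Slc16a3 encodes MCT4, the carrier that takes lactate out of glycolytic cells. It read 185.8, 125.4 and 138 in wild type vehicle arrays and 141.4, 47.04 and 135.9 under TCDD. The human AHR cells gave 378.1, 311.3 and 426.1 under vehicle and 186.6, 260.8 and 437.8 under TCDD. Signals under TCDD were spread over a wider range than under vehicle in both genotypes, and the treatments overlapped. The log2 differences were -0.51 (95% confidence interval -1.26 to 0.23) and -0.39, and both moved with single arrays. Without wild type TCDD replicate 2 the wild type value was -0.08, and without both female-pattern arrays -0.19. The human AHR value was -0.12 without TCDD replicate 1 and -0.70 without TCDD replicate 3.

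Pdk1 encodes a kinase that switches off pyruvate dehydrogenase and so keeps pyruvate from the mitochondria. It read 519.8, 805.1 and 576.3 under vehicle and 490.3, 621.3 and 498.1 under TCDD in wild type cells, and in human AHR cells 546.9, 603.4 and 656.1 under vehicle and 605.6, 490.6 and 486.5 under TCDD. The groups overlapped in both genotypes, at log2 differences of -0.22 and -0.19. The wild type Pdk1 value was -0.04 without vehicle replicate 2 and -0.14 without both female-pattern arrays, and the human AHR value was -0.29 without TCDD replicate 1. Bnip3, a mitochondrial protein that marks mitochondria for removal, read 4640, 5469 and 4369 under vehicle and 4193, 4231 and 6455 under TCDD in wild type cells. Its human AHR readings were 4870, 6360 and 6615 under vehicle and 4671, 6651 and 5934 under TCDD. The log2 differences of Bnip3 were 0.02 (95% confidence interval -0.41 to 0.44) in wild type and -0.05 in human AHR cells, with overlap in both.

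Ndrg1, a stress-responsive gene of the N-myc downstream-regulated family, went the other way from Adm and Ankrd37. It read 1234, 1106 and 952.3 in wild type vehicle arrays (mean 1097 ± 141 SD, n = 3) and 1763, 1583 and 2867 under TCDD (2071 ± 695 SD, n = 3). The human AHR arrays read 1356, 2535 and 2394 under vehicle (2095 ± 644 SD, n = 3) and 2331, 3327 and 2336 under TCDD (2665 ± 574 SD, n = 3). The wild type arrays separated fully, and the human AHR arrays overlapped. The log2 difference was 0.86 (SE 0.26, 95% confidence interval 0.31 to 1.42, unadjusted p = 0.00518, adjusted p = 0.966 in limma) in wild type and 0.38 (-0.18 to 0.93, adjusted p = 1) in human AHR cells. Without wild type TCDD replicate 3, the highest array of its group, the wild type value was 0.61. The human AHR value was 0.09 without vehicle replicate 1, the lowest array there, and 0.21 without TCDD replicate 2, the highest.

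Ankrd37, an ankyrin repeat protein of little-known function, read 189.6, 382.6 and 349.5 in wild type vehicle arrays (mean 307.2 ± 103 SD, n = 3) and 139.2, 171.7 and 168.2 under TCDD (159.7 ± 17.9 SD, n = 3). With the human receptor it read 336.3, 284.2 and 364.9 under vehicle (328.5 ± 40.9 SD, n = 3) and 260.4, 252.2 and 244.8 under TCDD (252.5 ± 7.8 SD, n = 3). The arrays separated by treatment in both genotypes, with little spread under TCDD. Its log2 difference was -0.83 (SE 0.21, 95% confidence interval -1.29 to -0.36, unadjusted p = 0.00193, adjusted p = 0.966 in limma) in wild type and -0.35 (SE 0.21, -0.82 to 0.11, unadjusted p = 0.123, adjusted p = 1) in human AHR cells. With the replicate number as a block the unadjusted p in human AHR cells was 0.0445, and the adjusted p was again 1 in limma. By unadjusted p in wild type, Ankrd37 ranked 26 and Adm 32 of the 18193 genes.

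**Figure D2:**
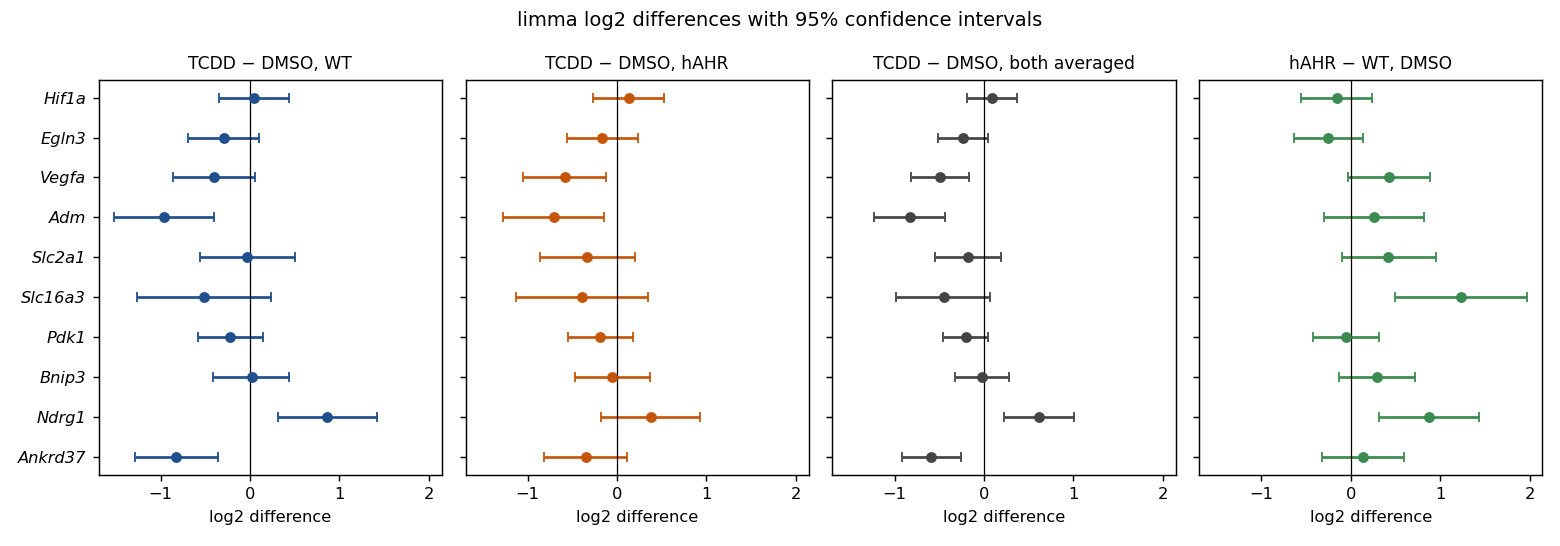
Log2 difference (horizontal axis, log2 of signal plus 16) of each gene, as points with bars for the 95% confidence interval of the limma fit and a line at 0, in 4 panels: TCDD minus vehicle (DMSO) in wild type (WT), in human AHR cells (hAHR) and averaged over both, and human AHR minus wild type under vehicle. Before adjustment over all genes, the intervals that exclude 0 are those of Adm, Ankrd37 and Ndrg1 in wild type, Adm and Vegfa in human AHR cells, these 4 genes on average, and Slc16a3 and Ndrg1 between genotypes; none passed after adjustment.

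Separation of the arrays was counted for every gene. In wild type 2 of the 10 genes lay below without overlap, against 2.81% of all genes, and 1 above, against 6.19%. In human AHR cells 3 lay below, against 3.85%, and 0 above, against 3.35%. Adm and Ankrd37 lay below in both genotypes, which held for 19 genes of all, or 0.104%; 0 members and 0.236% of all genes lay above in both. The count in wild type moved with 1 array, TCDD replicate 3, the highest of its group in Vegfa, Slc2a1, Bnip3, Egln3, Ndrg1 and Adm. Without it 6 of 10 lay below (Adm, Ankrd37, Bnip3, Egln3, Slc2a1 and Vegfa), against 5.77% of all genes. Leaving out an array can only add genes to such a count. This array was the highest in each gene added, so the larger count is no result about them. Without the female-pattern pair 3 lay below (Adm, Ankrd37 and Pdk1), against 15.5% of all genes. The summed cholangiocyte markers, 4 of 4 measured, also separated in wild type, at 763.8 to 929.6 under vehicle and 601.9 to 693.3 under TCDD. Most of that sum was Krt19 (-0.45, without overlap), while Krt7 (-0.41), Epcam (-0.05) and Sox9 (0.04) overlapped. Krt7 was dim, at 1.9 to 13.3 in the wild type arrays. Of the 5 stellate cell and fibroblast markers, all measured and dim, Acta2 lay below vehicle without overlap in both genotypes (-0.65 in wild type, -1.15 in human AHR cells, average adjusted p = 0.872 in limma) and Reln above in both (0.66 and 0.88, average adjusted p = 0.826). Their summed signal was 63.9 to 123.5 under vehicle and 73.6 to 119.2 under TCDD in wild type, and 107 to 154.3 and 145.1 to 185.7 in human AHR cells. The part of these markers in the members' counts was not tested.

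As a group, 7 of the 10 genes had a lower mean under TCDD in wild type (44.3% of all genes did) and 8 in human AHR cells (53%). The median log2 difference was -0.26 in each genotype, beside 0.03 and -0.01 over all genes. Bringing the arrays to the same median gave 9 lower with a median of -0.31 in wild type and 7 lower with a median of -0.21 in human AHR cells. Because some arrays decide single genes, the count of lower means is a description of these libraries.

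Taking the average of both genotypes' differences set 6 TCDD arrays against 6 vehicle arrays. The 3 genes lower at an unadjusted p under 0.05 were Adm, Ankrd37 and Vegfa, and Ndrg1 was higher, against 1.37% and 2.19% of all genes in those directions. Adm had an average log2 difference of -0.83 (SE 0.18, 95% confidence interval -1.23 to -0.44, unadjusted p = 0.00052), which ranked 15 of all genes and missed the threshold with an adjusted p of 0.63 in limma. Ankrd37 averaged -0.59 (SE 0.15, -0.92 to -0.26, adjusted p = 0.872), Vegfa -0.49 (SE 0.15, -0.82 to -0.17, adjusted p = 0.997) and Ndrg1 0.62 (SE 0.18, 0.23 to 1.01, adjusted p = 0.972). At an adjusted p under 0.05, 0 of 10 members were called, with 0.022% of all genes called. The average was below 0 for 8 of the 10 genes and for 48.1% of all genes. With the replicate number as a block, 5 genes were lower at an unadjusted p under 0.05 in place of 3. The added genes were Slc16a3 (unadjusted p = 0.0238, adjusted p = 0.828 in limma) and Pdk1 (unadjusted p = 0.0434, adjusted p = 0.829 in limma). The Hif1a average was 0.09 (-0.19 to 0.37) and the Bnip3 average was -0.02.

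The receptors were then set against each other through the difference of the TCDD differences, human AHR minus wild type. The test called 0 of the 10 genes at an adjusted p under 0.05 in limma, and 0 of all genes (0%); at an unadjusted p under 0.05 it named 0 members higher and 0 lower, against 0.934% and 2.22% of all genes. A lower value in human AHR cells was found for 4 of 10 members and 55.9% of all genes. The 2 widest differences were those of Ndrg1 (-0.49, 95% confidence interval -1.28 to 0.30) and Ankrd37 (0.47, -0.18 to 1.13), both with an adjusted p of 0.999. For Adm the difference was 0.25 (-0.54 to 1.03), and for Vegfa -0.19 (-0.84 to 0.47). The other Ndrg1 probe sets gave -0.53 to -0.72. Of these, -0.72 (-1.33 to -0.10) had an unadjusted p of 0.0255 and -0.62 (-1.23 to 0) one of 0.0493 in limma, and none was called. The intervals of the 10 genes are wide enough to hold differences as large as the TCDD values themselves. The separation of Ndrg1 in wild type alone and of Vegfa in human AHR cells alone therefore does not show that the receptors differed.

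Under vehicle, 7 of the 10 genes had a higher mean in human AHR than in wild type cells, with Slc16a3 and Ndrg1 the farthest apart. At an adjusted p under 0.05 in limma 0 of 10 were called, against 0.011% of all genes, and at an unadjusted p under 0.05 there were 2 higher and 0 lower, against 2.65% and 1.61%. Slc16a3 read 311.3 to 426.1 in human AHR and 125.4 to 185.8 in wild type vehicle arrays, a log2 difference of 1.23 (SE 0.34, 95% confidence interval 0.49 to 1.97, unadjusted p = 0.00328, adjusted p = 0.965). Ndrg1 differed by 0.88 (SE 0.26, 0.32 to 1.44, unadjusted p = 0.00468, adjusted p = 0.965). Slc2a1 had a difference of 0.42 (-0.10 to 0.95). Its other probe sets gave 0.54 (0.14 to 0.94, unadjusted p = 0.0119 in limma) and 0.62 (0.10 to 1.14, unadjusted p = 0.0223), and neither was called. These 3 genes lay above wild type in all 3 arrays, against 6.28% of all genes, and 0 lay below, against 4.44%. Vegfa differed by 0.43 and Bnip3 by 0.29, both with overlap, and Hif1a by -0.16. The median over the 10 genes was 0.28, beside 0.03 over all genes, and 3 had a lower mean, as did 44.9% of all genes.

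Markers of other liver cells also differed between the vehicle groups. For Kupffer cells, the macrophages of the liver, 5 of 5 markers had a higher mean in human AHR cells, with a median log2 difference of 1.13, each with overlap. Cd68, the brightest of them, differed by 0.20. In wild type vehicle arrays Clec4f read 2.7 to 8.4 and Cd5l 6.9 to 23, near the 4.7 or less of Y-linked sets in the female-pattern arrays. The summed signal of the Kupffer cell markers, most of it Cd68, was 2005.3 to 3946.4 in human AHR and 1874.9 to 3375.6 in wild type arrays. The summed signal of the 5 endothelial markers was 123.9 to 224.9 against 110.3 to 123, without overlap, while each marker by itself overlapped. The 5 stellate cell and fibroblast markers summed to 107 to 154.3 against 63.9 to 123.5, and Reln among them lay above without overlap (0.71). In human AHR vehicle replicate 1, Csf1r read 23.3 and Adgre1 20, within their wild type ranges, while Slc16a3 read 378.1 and Ndrg1 1356. In replicates 2 and 3, Csf1r read 127.4 and 194.6, Slc16a3 311.3 and 426.1, and Ndrg1 2535 and 2394. The part of these markers in the differences of Slc16a3, Ndrg1 and Slc2a1 was not tested. In bulk cultures, more cells of a type and more RNA per cell cannot be told apart.

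**Figure D3:**
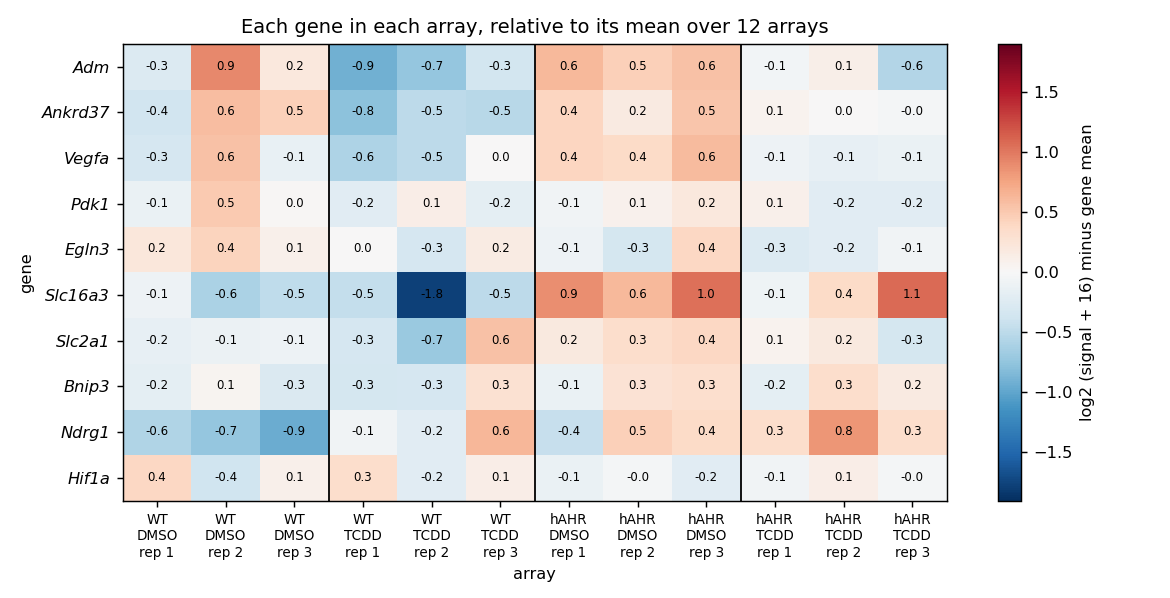
Signal of the 10 genes (rows) in the 12 arrays (columns, by group; WT, wild type; hAHR, human AHR), as log2 of signal plus 16 minus the gene's mean over all arrays, with the colour scale and the printed values in log2 units. Adm and Ankrd37 lie lower in the TCDD columns than in the vehicle columns of the same genotype, Ndrg1 is low in all 3 wild type vehicle columns, and the darkest cell is Slc16a3 in wild type TCDD replicate 2, which read 47.04.

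Several probe sets that read the same gene allow a check on single sets, although they share the arrays and so are not replicates. The number with the gene's symbol alone was 5 for Ndrg1, 4 each for Hif1a and Pdk1, 3 for Slc2a1, 2 each for Vegfa, Egln3 and Adm, and 1 each for Slc16a3, Bnip3 and Ankrd37. Tested on their own over all 45037 probe sets, 0 of the 25 were called in any comparison, where the shares of all probe sets called were 0.00444% under TCDD with the mouse receptor, 0.00666% with the human receptor, 0% for the difference, 0.00666% between genotypes under vehicle and 0.0133% on average. Shares this small make 0 of 25 no result about these sets. Without overlap, 6 of the 25 lay above and 2 below in wild type, against 7.17% and 2.61% of all probe sets, and 1 above and 6 below in human AHR cells, against 3.69% and 4.18%. Between genotypes under vehicle 9 lay above and 0 below, against 6.2% and 4.23%. For Ndrg1 all 5 sets lay above without overlap in wild type, at log2 differences of 0.86 to 0.90, and had values of 0.15 to 0.38 in human AHR cells. The same 5 sets lay above wild type under vehicle in human AHR cells, at 0.85 to 0.98. The other Adm set gave -0.83 in wild type, with overlap, and -0.64 in human AHR cells, without. The other Vegfa set gave -0.36 and -0.26, and the other Egln3 set -0.35 and -0.11.

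The sets of Slc2a1 split in wild type, where the brightest gave -0.03 and the others 0.06 and 0.09; in human AHR cells all 3 were below 0, at -0.33, with overlap, and at -0.38 and -0.40, both without. Among the Hif1a sets, 1 lay above under TCDD without overlap in wild type (0.23) and another did so in human AHR cells (0.26), while the remaining values ran from -0.09 to 0.13. A Hif1a set read 1.5 to 15.7 and a Pdk1 set 2.3 to 24.9 over the 12 arrays, beside the 4.7 or less that Y-linked sets read in the female-pattern arrays, so their differences say little about either gene. Over the 25 sets, 13 were higher and 12 lower under TCDD in wild type, and 9 higher and 16 lower in human AHR cells, and the 5 Ndrg1 sets are among the 13.

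**Figure D4:**
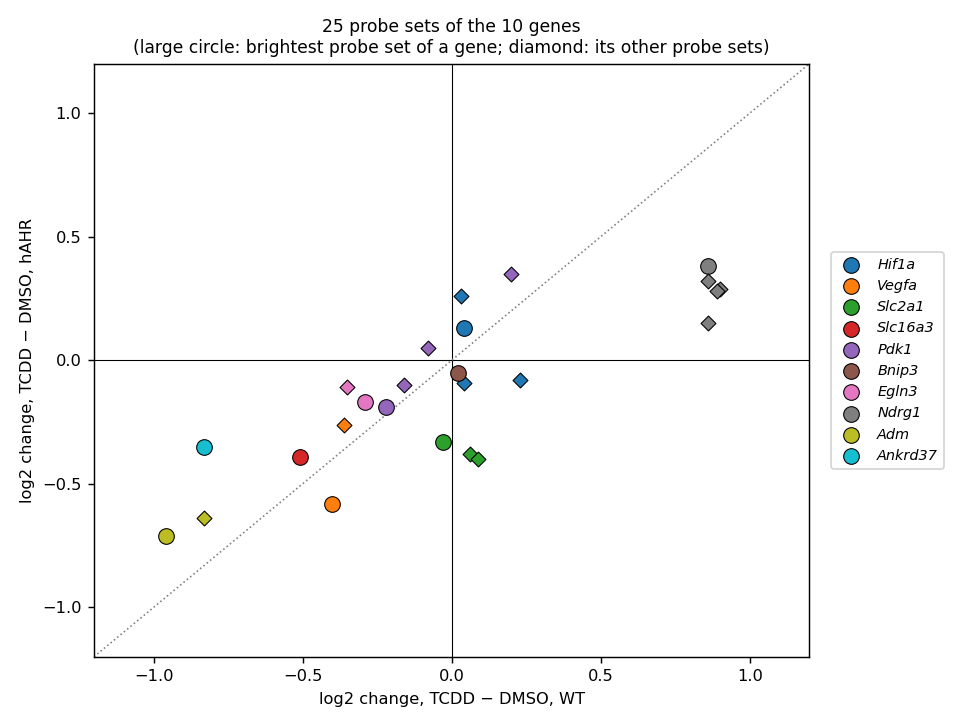
Log2 difference for TCDD against vehicle (log2 of signal plus 16) of each of the 25 probe sets in wild type (WT, horizontal axis) and in human AHR cells (hAHR, vertical axis), coloured by gene, with large circles for the brightest set of a gene, diamonds for its others, lines at 0 and a dotted line where both are equal. The 5 Ndrg1 sets lie together between 0.86 and 0.90 in wild type and between 0.15 and 0.38 in human AHR cells, and the Hif1a sets fall on both sides of 0 in human AHR cells.

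The rest of the HIF system was close to level in its medians, with Cited2 apart. Of 11 partners, hydroxylases and co-regulators, all measured, 0 were called by TCDD in either genotype, and the median log2 differences were 0.06 in wild type and -0.03 in human AHR cells. Of all genes 0.0055% were called in wild type and 0.022% in human AHR cells, so 0 calls is no result about this list. Arnt, the partner that HIF1A and AHR share, read 271 ± 68.2 (SD, n = 3) under vehicle and 255.3 ± 38.1 under TCDD in wild type, and 223.3 ± 38.3 and 225.8 ± 49.2 in human AHR cells, for differences of -0.06 and 0.01. Epas1, the alternative alpha subunit, had differences of -0.24 and -0.11, and Egln1, the main oxygen sensor, 0.13 and -0.03. The only gene of this list with an unadjusted p under 0.05 was Cited2, named after its values were seen. It encodes a HIF-induced protein that competes with HIF1A for its coactivator, and read 1922.5, 2118.3 and 1262.7 under vehicle and 1602.9, 988.7 and 772.2 under TCDD in wild type cells. Cited2 in human AHR cells read 1917.7, 1873.6 and 2002.9 under vehicle and 933.6, 1183.9 and 1304.1 under TCDD. The arrays overlapped in wild type and separated in human AHR cells, at log2 differences of -0.68 and -0.76; on average it was -0.72 with an adjusted p of 0.83 in limma.

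Glycolysis genes known to be induced by hypoxia showed 0 calls for TCDD among the 14 of 17 that were measured. With 0.0055% of all genes called in wild type and 0.022% in human AHR cells, 0 calls is no result about them. The medians of these 14 genes were -0.03 in wild type and -0.05 in human AHR cells. Ldha, which makes lactate, had TCDD differences of 0.01 and 0.06, Pgk1 of 0.02 and 0.14, and Hk2, the inducible hexokinase, of -0.33 and -0.34. Pfkp, named after its values were seen, gave -0.33 (unadjusted p = 0.0398 in limma) and -0.19. Its arrays lay below without overlap in wild type, as did those of 2.81% of all genes. Of 20 further hypoxia-induced genes 15 were measured and 0 called, beside the same shares of all genes, with medians of 0.11 and -0.05. The histone demethylase gene Kdm3a gave 0.40 and 0.15, the collagen prolyl hydroxylase gene P4ha1 0.27 and -0.08, and the growth-arrest gene Ddit4 0.15 and 0.06. Plin2 (-0.32) and Bhlhe40 (-0.38), named after their values were seen, lay below without overlap in wild type. Bhlhe40 also did so in human AHR cells (-0.31), where 3.85% of all genes did. Under vehicle, 13 of these 15 had a higher mean in human AHR than in wild type cells, with a median of 0.23 beside 0.03 over all genes. A lower mean was found for 2 of the 15 and for 44.9% of all genes. In that comparison Kdm3a differed by 0.59, P4ha1 by 0.63 and Ero1a by 0.28, each without overlap. Of all genes 6.28% lay above without overlap. Ddit4 differed by 0.47, with overlap. The test called 0 of the 15, where it called 0.011% of all genes. In human AHR vehicle replicate 1, Csf1r and Adgre1 lay within their wild type ranges, as given above. There Kdm3a read 642.7 and P4ha1 317.9, against at most 546.7 and 223.4 in wild type vehicle arrays, while Ddit4 read 117.1, within its wild type range. The part of the Kupffer cell markers in these differences was not tested.

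The positive control gives the scale of a response that passed the test in the same arrays. Tiparp, an AHR-induced ADP-ribosyltransferase, rose by a log2 difference of 1.30 in wild type (adjusted p = 0.0193 in limma) and 1.37 in human AHR cells (adjusted p = 0.00539). Cyp1a1, the classical dioxin-induced cytochrome, rose by 6.09 in human AHR cells (adjusted p = 0.0427). In wild type cells it read 124.9, 2518.1 and 64.9 under TCDD against 18.5 to 25.3 under vehicle, a difference of 3.00 that was not called. Nqo1 had differences of 0.41 and 0.62 and was not called. Cyp1a2 was 2.32 higher in human AHR than in wild type cells under vehicle (adjusted p = 0.0085). The TCDD values of Adm, Ankrd37 and Ndrg1 in wild type were smaller in size than that of Tiparp, with standard errors of 0.21 to 0.26.

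A mean pattern was taken over the 9 hypoxia-induced genes by centring each on its own mean. It stood at -0.21, 0.17 and -0.13 in the wild type vehicle arrays and at -0.41, -0.55 and 0.01 under TCDD. In human AHR cells the pattern stood at 0.20, 0.27 and 0.49 under vehicle and at -0.01, 0.14 and 0.03 under TCDD. Wild type TCDD replicates 1 and 2 were lowest and the human AHR vehicle arrays highest, with the third wild type TCDD array apart from its group. Among 8718 other genes with a mean signal of at least 50, the 5 most like this pattern were Ffar4 (Pearson r = 0.833 over 12 arrays), Aldh1l2 (0.832), Bag2 (0.827), Bhlhe40 (0.819) and Edem1 (0.819). These were the highest of many correlations over the same arrays, which share genotype, treatment and scaling, and are given as a description. Of them Bhlhe40, a hypoxia-responsive repressor of the circadian bHLH family, lay below vehicle in all 3 TCDD arrays of each genotype, at log2 differences of -0.38 and -0.31. Of all genes 0.104% lay below in both. On average Bhlhe40 had an unadjusted p of 0.00505 and an adjusted p of 0.985 in limma. It was picked for its likeness to the members over these same arrays, so its values are no separate evidence for their pattern.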

How the data were processed

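RNA from 12 hepatocyte cultures was hybridised to Affymetrix arrays of 45101 probe sets. The deposited values are linear probe set intensities made by the authors with PLIER in Affymetrix Expression Console 1.1, per the submitters' processing notes. The deposited intensity of each array was rescaled to a 2% trimmed mean of 150, 64 control probe sets were left out, and symbols came from the platform annotation (34945 probe sets with 1 symbol, 932 with several and 9160 with none; 34741 symbols were matched to RefSeq by Entrez ID and 0 differed).

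Log2 of the rescaled intensity plus 16 was fitted with limma 3.58.1 (R 4.3.3) to group means, using all 12 arrays and leaving 8 residual degrees of freedom, with moderated variances and an intensity trend, two-sided, Benjamini-Hochberg over 18193 genes, threshold 0.05. The brightest probe set stood for a gene. The number of arrays limits the precision. The script was tested on simulated data.

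The members, lists and alternatives were chosen with earlier results of these data known. All 10 members are named, the first 3 measured genes of each list, any list gene called, and the 5 genes most like the members' mean pattern. Cited2, Pfkp, Plin2 and Ero1a were named after their values were seen. Replicate numbers within a genotype were checked as pairs by correlating deviations from group means. Same-numbered arrays gave 0.19 to 0.27 in human AHR cells, where differently numbered arrays gave at most -0.04. In wild type they gave 0.05 to 0.51, where differently numbered arrays reached 0.28. The reported fit has no block in either genotype, and the alternative with a block had it in both. The alternatives were other offsets, scalings, filters, probe set rules, the replicate block, SAM (the test the design text names) and leaving out arrays. Promoter windows are RefSeq's for GRCm38.p6; both strands were searched with Python 3.11.15, and figures drawn with matplotlib 3.10.9.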

Additional observations from a re-analysis of the deposited data

How the results depend on the processing

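Under the alternatives, 0 of 1120 values recomputed for single members passed an adjusted p under 0.05, and the count of members called was 0 in each of the 5 comparisons, SAM included where it was run (over all genes SAM called 0 for TCDD with the mouse receptor, 7 with the human receptor and 3 between the vehicle groups). The lowest adjusted p that an alternative gave was 0.0709 for the average of Ankrd37, 0.115 for Ankrd37 in wild type and 0.176 for the average of Adm. Vegfa, Adm, Ankrd37 and Ndrg1 kept an unadjusted p under 0.05 on average in every alternative in which the average was fitted. With the replicate number as a block, 0 members were called. Over all genes that fit called 1 in wild type, 5 in human AHR cells, 0 for the difference and 6 on average. The reported fit called at most 0.022% of all genes, so 0 calls among 10 members is no result about them. With the block, unadjusted p was 0.000363 for Ankrd37 in wild type and 0.00795 for Adm in human AHR cells in limma. The average adjusted p was 0.289 for Adm and 0.305 for Ankrd37. The genotype comparison has no such fit, since numbers pair arrays only within a genotype.

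Signs turned in 18 values, each with a 95% confidence interval that held 0 in the reported fit, and the cause was not tested. In wild type, quantile normalization gave Bnip3 -0.01, the same median gave Bnip3 -0.04 and Hif1a -0.01, the mean over probe sets gave Slc2a1 0.04, and leaving out both female-pattern arrays gave Hif1a -0.02 and Slc2a1 0.25. In human AHR cells the same median gave Bnip3 0 and the mean over probe sets gave Pdk1 0.03. For the difference of TCDD effects, the same median gave Bnip3 0.04, the mean over probe sets gave Hif1a -0.03, and leaving out both female-pattern arrays gave Slc16a3 -0.20, Pdk1 -0.05, Egln3 -0.09 and Adm -0.11. Under vehicle, the mean over probe sets gave Hif1a 0.04 and Pdk1 0.10, and leaving out both female-pattern arrays gave Pdk1 0.13 there and Bnip3 0.08 on average. The same median also moved the median difference of TCDD effects over all genes from -0.04 to 0.07, and that of the members from 0.06 to 0.17.

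Leaving out single arrays turned the sign of further values, with these lowest and highest results. In wild type they were -0.16 and 0.22 for Hif1a, -0.39 and 0.24 for Slc2a1, and -0.19 and 0.12 for Bnip3. In human AHR cells they were -0.19 and 0.09 for Bnip3, and -0.33 and 0.04 for Egln3. For the difference of effects the ranges were -0.09 to 0.30 for Hif1a, -0.45 to 0 for Vegfa, -0.57 to 0.06 for Slc2a1, -0.30 to 0.40 for Slc16a3, -0.15 to 0.16 for Pdk1, -0.20 to 0.14 for Bnip3, -0.04 to 0.33 for Egln3 and -0.07 to 0.52 for Adm. Under vehicle they were -0.37 to 0.02 for Hif1a, -0.18 to 0.13 for Pdk1, -0.01 to 0.58 for Adm and -0.16 to 0.32 for Ankrd37, and on average -0.02 to 0.18 for Hif1a and -0.12 to 0.05 for Bnip3. Adm, Ankrd37, Ndrg1, Vegfa, Slc16a3 and Pdk1 kept their direction under TCDD in both genotypes in every one of these fits. The wild type values nearest 0 were -0.14 for Vegfa, -0.08 for Slc16a3 and -0.04 for Pdk1.

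The precision is limited by 3 arrays a group and by signals near background for a Hif1a and a Pdk1 probe set. Deposited scaling and treatment coincide in wild type, so a difference in how those 3 arrays were processed cannot be told apart from TCDD there.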
